A study of Drosophila melanogaster with 3 samples.

Results

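The JAK-STAT pathway of Drosophila melanogaster was examined at 7 genes: the ligand genes upd1, upd2 and upd3, the receptor gene dome, the kinase gene hop, the transcription factor gene Stat92E and the feedback inhibitor gene Socs36E. They were taken by name, and a peak was assigned to a gene when it overlapped the gene's span on the dm6 assembly or the 5000 bp on either side. The stretches between the neighbouring upd2, upd3 and upd1 on X were included. The 7 genes are among 17807 genes on the main chromosomes, and the windows around them, which cover 164 kb, held 73 of the 24661 peaks of the 3 libraries. Where peaks of all 3 libraries overlapped, they were joined into a consensus region, and 18 of the 5768 consensus regions lay in these windows.

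In flies the pathway is built from few parts. The secreted Unpaired proteins bind Domeless, a receptor related to vertebrate interleukin-6 receptors, and the kinase Hopscotch on its inner side then phosphorylates Stat92E, which enters the nucleus and switches genes on. Socs36E is among the genes it switches on, and its product dampens the pathway. In the wing disc, the larval sac of epithelium from which the adult wing and thorax form, the pathway is known for its part in hinge growth and survival and in regeneration after damage.

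The libraries were CUT&Tag, in which an antibody guides a transposase to cut and tag the DNA beside the bound protein. All 3 belong to a single group of discs from third-instar larvae kept at 25 °C, of genotype nub>GFP;UAS-BunA-HA. These larvae make GFP and an HA-tagged BunA, an isoform of the TSC22-family gene bunched, from a nubbin-driven UAS line (nubbin marks the wing pouch), and the antibody recognised HA. The transgene thus supplied the protein on top of whatever bunched product the discs make themselves. No library without the tag or with another antibody was analysed here, and nothing in the labels tells apart separate crosses from repeat libraries, so the spread between them may be technical. Tagged protein is expected where the nubbin driver is active. Whole discs were used, and the dissociation was at 37 °C. Without an untagged library, background from other cells could not be measured. A peak is therefore not assigned here to the pouch, the hinge or any other part of the disc.

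Replicates 1, 2 and 3 are the libraries numbered 2, 3 and 4 in their titles. They held 9268, 9005 and 9225 peaks, with a median fold enrichment of 6.72, 7.25 and 7.15 on the main chromosomes. Fold enrichment is the authors' value for each peak, the signal at its summit as a ratio over the background estimated by the peak caller. It is used here to describe and rank peaks within a library. The means, SDs and orders of replicates given below use the same values, without adjustment for differences between the libraries. Consensus regions lay at or within 5000 bp of all 3 of the pouch markers nub, vg and rn. By the same rule 40.1% of all genes were called. Of 17 markers of notum, muscle precursors, trachea, haemocytes, peripodial cells, fat body and neurons, 10 had a region. Notum had 3 of 3, peripodial cells 2 of 2, muscle precursors 2 of 3, haemocytes 1 of 3, and trachea and neurons 1 of 2 each. The pouch was thus not alone in having all its markers called. Both fat body markers, Lsp1alpha and Fbp1, had none. On X the median fold of consensus regions was 8.32, and on the autosomal arms 2L, 2R, 3L and 3R it was 8.17.

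A consensus region was present at 6 of the 7 genes, and hop was without one. By the same rule 40.1% of all genes and 40.2% of protein-coding genes were called. Longer genes are called more often. Among protein-coding genes spanning 2000 bp to under 5000 bp, the class of upd1 and upd2, 37.5% had a region, among those from 5000 bp to under 10000 bp, the class of upd3, dome and hop, 54.8%, and among those from 10000 bp to under 20000 bp, the class of Stat92E and Socs36E, 65.3%. The median number of regions per gene was 2 for the 7 genes and 0 for protein-coding genes. It was 0 in the shortest of these length classes and 1 in each of the others. Stat92E and upd1 had 4 regions each and Socs36E had 3. Of protein-coding genes of every length, 9.79% had at least 3 regions and 5.01% at least 4, and these 2 shares were not computed by length class. The genes were chosen by name with earlier results of these data known, so these counts are a description.

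The 3 ligand genes lie within a 78.6 kb window on X, in the order upd2, upd3, upd1 by rising coordinate. The genes span 2631, 7364 and 3938 bp in that order, so most of the window lies outside them. The anti-HA consensus regions there stood around the genes, where most of the sequence is. The window held 9 consensus regions, or 11.4 per 100 kb, against 4.49 per 100 kb over X and 4.29 over X and the large autosomal arms together. This density was not particular to the ligand genes. The windows of dome, Stat92E and Socs36E held 11.5, 14.8 and 12.6 per 100 kb, and that of hop 0. The value of dome rests on 2 regions, and 1 of the 4 at Stat92E was centred just beyond its window. Whole chromosomes are not matched to windows placed at genes, and no density over the windows of other genes was computed. None of the 9 regions of the ligand window was centred in a ligand gene. Of the 9 centres, 7 lay in no annotated gene, and the other 2 lay in the long non-coding RNA genes lncRNA:CR45613 and lncRNA:CR15061. Over X as a whole, 30.9% of the 1056 consensus regions were centred in no gene. Most of the ligand window lies outside annotated genes, and no share matched for that was computed, so the 2 are not like for like. Replicates 1, 2 and 3 had 16, 12 and 13 peaks in the window.

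**Figure D1:**
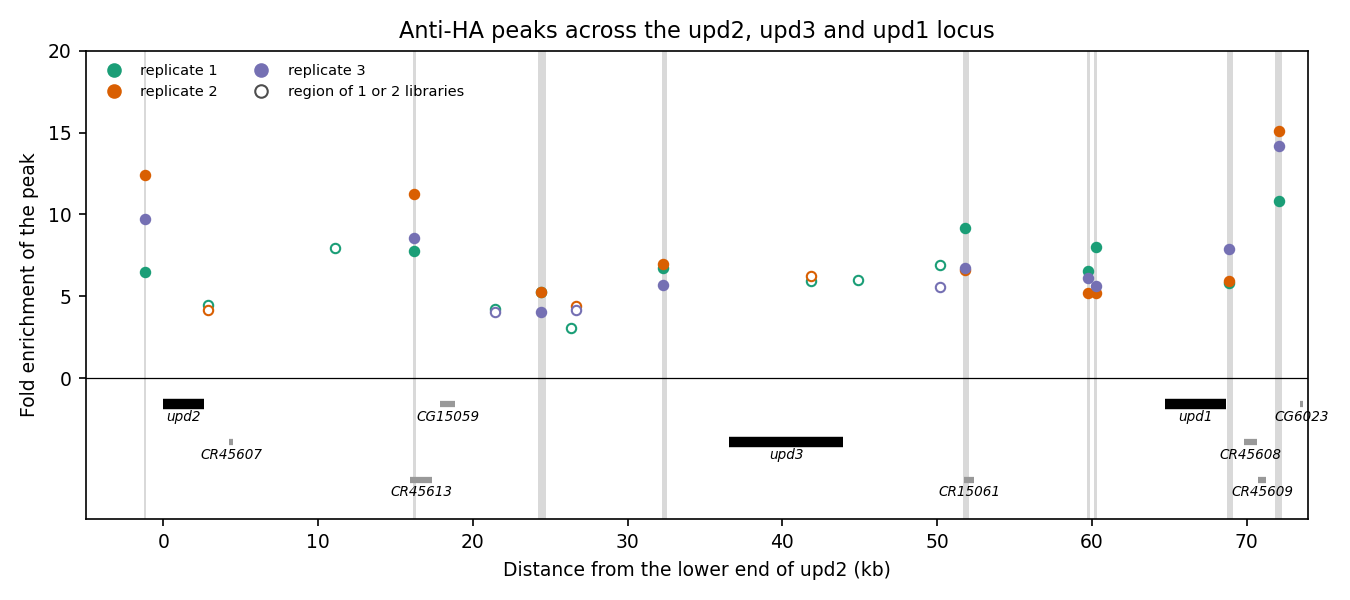
Fold enrichment of each anti-HA peak (vertical axis, linear ratio) against its region's distance in kb from the lower end of upd2 (horizontal axis). Filled points belong to regions of all 3 libraries (grey bands mark their extent), open points to regions of 1 or 2 libraries, and bars below show the ligand genes (black) and other annotated genes (grey). The 9 bands lie outside the black bars, and the points of the region beyond upd1, from 10.8 to 15.1, include the highest of the window.

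The strongest region of the ligand locus lay beside upd1, which encodes the founding Unpaired ligand. At 18312497 to 18312910 on X, 3478 bp beyond the higher end of upd1 and 843 bp beyond lncRNA:CR45609, the folds were 10.8, 15.1 and 14.2 in replicates 1, 2 and 3, a mean of 13.4 ± 2.24 (SD, n = 3). Replicate 1 was lowest, and in each library the value was above that library's median. The region nearest to upd1, at 18309371 to 18309782 and centred 223 bp beyond the same end, had 5.81, 5.91 and 7.91 (mean 6.55 ± 1.19). It was the weaker of the pair in every library, and the ranges of the folds at the 2 positions did not overlap.

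On the other side of upd1 a close pair of weak regions stood near the limit of the window. The region at 18300322 to 18300532, centred 4949 bp before the gene, had folds of 6.56, 5.18 and 6.13. Its neighbour at 18300786 to 18300974 had 8.03, 5.18 and 5.62. Their centres were 483 bp apart, replicate 1 was highest and replicate 2 lowest at both, and their ranges overlapped. The second of them joined peaks that overlapped only at their edges, and it was no longer a consensus region when 50% of the shorter peak had to overlap, which left 8 regions in the ligand window.

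upd2, which encodes a ligand known for its part in fat body signalling, had a single consensus region. It lay at 18239407 to 18239562, 1165 bp before the lower end of the gene, with folds of 6.46, 12.4 and 9.71 (mean 9.53 ± 2.99; SD, n = 3). The libraries differed widely here, and replicate 1 was the only one below its library's median. On the other side, 290 bp beyond the gene at 18243478 to 18243678, replicates 1 and 2 had weak peaks of 4.47 and 4.14, and replicate 3 had none.

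upd3, which encodes a ligand known from wounding and immune responses, had the weakest strongest region of the 6 genes. It lay at 18272874 to 18273214, 4260 bp before the gene, with folds of 6.75, 6.99 and 5.68 (mean 6.48 ± 0.701; SD, n = 3). The 3 values lay close together and below the median of 8.20 of all consensus regions. Inside the gene, at 18282444 to 18282626, replicates 1 and 2 had peaks of 5.93 and 6.21, and replicate 3 had none. These were the only peaks inside any of the 3 ligand genes. A further peak of replicate 1 alone, with a fold of 5.98, lay 920 bp beyond the higher end.

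The stretches between the ligand genes carried 6 of the 9 regions. The 33.9 kb from upd2 to upd3 held 3, with mean folds from 4.85 to 9.20, and the 20.8 kb from upd3 to upd1 held 3, from 5.96 to 7.49. The region in lncRNA:CR45613, at 18256779 to 18256979, had folds of 7.78, 11.3 and 8.57 (mean 9.20 ± 1.82; SD, n = 3). It was the strongest between the genes, replicate 2 was highest there, and its summits lay within 29 bp. The region in lncRNA:CR15061, at 18292316 to 18292684, had 9.15, 6.61 and 6.70 (mean 7.49 ± 1.44). Here replicate 1 was highest, and the summits were spread over 233 bp. The weakest, at 18264845 to 18265394 and 5514 bp from the nearest gene, CG15059, had 5.25, 5.27 and 4.02 (mean 4.85 ± 0.719). It was 550 bp wide and joined 4 peaks, since replicate 3 had separate peaks at its ends.

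Of all 17 positions with a peak in the ligand window, 9 (52.9%) recurred in 3 libraries, 5 (29.4%) in 2 and 3 (17.6%) in 1. Over the genome these shares were 53.1%, 17.2% and 29.7%.

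dome, the receptor gene, carried the strongest region of the 7 genes, inside the gene and close to one end. At 19683038 to 19683289 on X, centred 372 bp inside the higher end of dome, the folds were 16.6, 15.9 and 21.6 in replicates 1, 2 and 3 (mean 18.0 ± 3.12; SD, n = 3). Replicate 3 was highest, and the region stood at percentile 96.9 of the folds within a library (mean of the libraries). Over all consensus regions the median of this percentile was 61.7. Of protein-coding genes, 2.35% had a strongest region at or above that of dome. The second region, at 19683420 to 19683580, was centred only 20 bp inside the same end and ran into the 289 bp between dome and its neighbour Ubqn. Its folds were 9.14, 8.19 and 6.84 (mean 8.06 ± 1.15).

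The 2 dome regions were centred 351 bp apart, and their order was the same in every library, with no overlap of the folds. Replicate 3 was the highest library at the stronger region and the lowest at the weaker. No other peak lay in the dome window in any library. That window takes in et, which lies 169 bp from the lower end of dome and encodes a related short receptor that dampens the pathway. No region overlapped the span of et, and its own window held 1 consensus region, at 19668696 to 19668872 inside Zw, with folds of 4.11, 7.64 and 4.04. Because Ubqn lies so close, the 2 dome regions also count for Ubqn, and the gene table used here gives no strand to say which end of dome is its start.

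hop, the kinase gene, had no consensus region and 1 peak in all. That peak, of replicate 3 alone, had a fold of 5.62, percentile 29.0 of its library, and lay at 11370783 to 11370878, 2742 bp beyond the higher end of hop and inside dlg1. Replicates 1 and 2 had no peak in the window. The nearest consensus regions were 206 kb below the gene in Dlic, and 21.8 kb above it in dlg1, where the folds were 14.0, 14.5 and 15.3. The 235 kb between them, from 11155137 to 11389870, ranked 6 in length among the 1055 gaps between neighbouring consensus regions on X, whose median was 6.98 kb and longest 325 kb. It wholly contained 22 protein-coding genes. The libraries had 8 peaks there, 2, 1 and 5 in replicates 1, 2 and 3, with folds from 4.14 to 9.47. The absence of a peak says that none passed the authors' threshold, not that no signal was there.

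**Figure D2:**
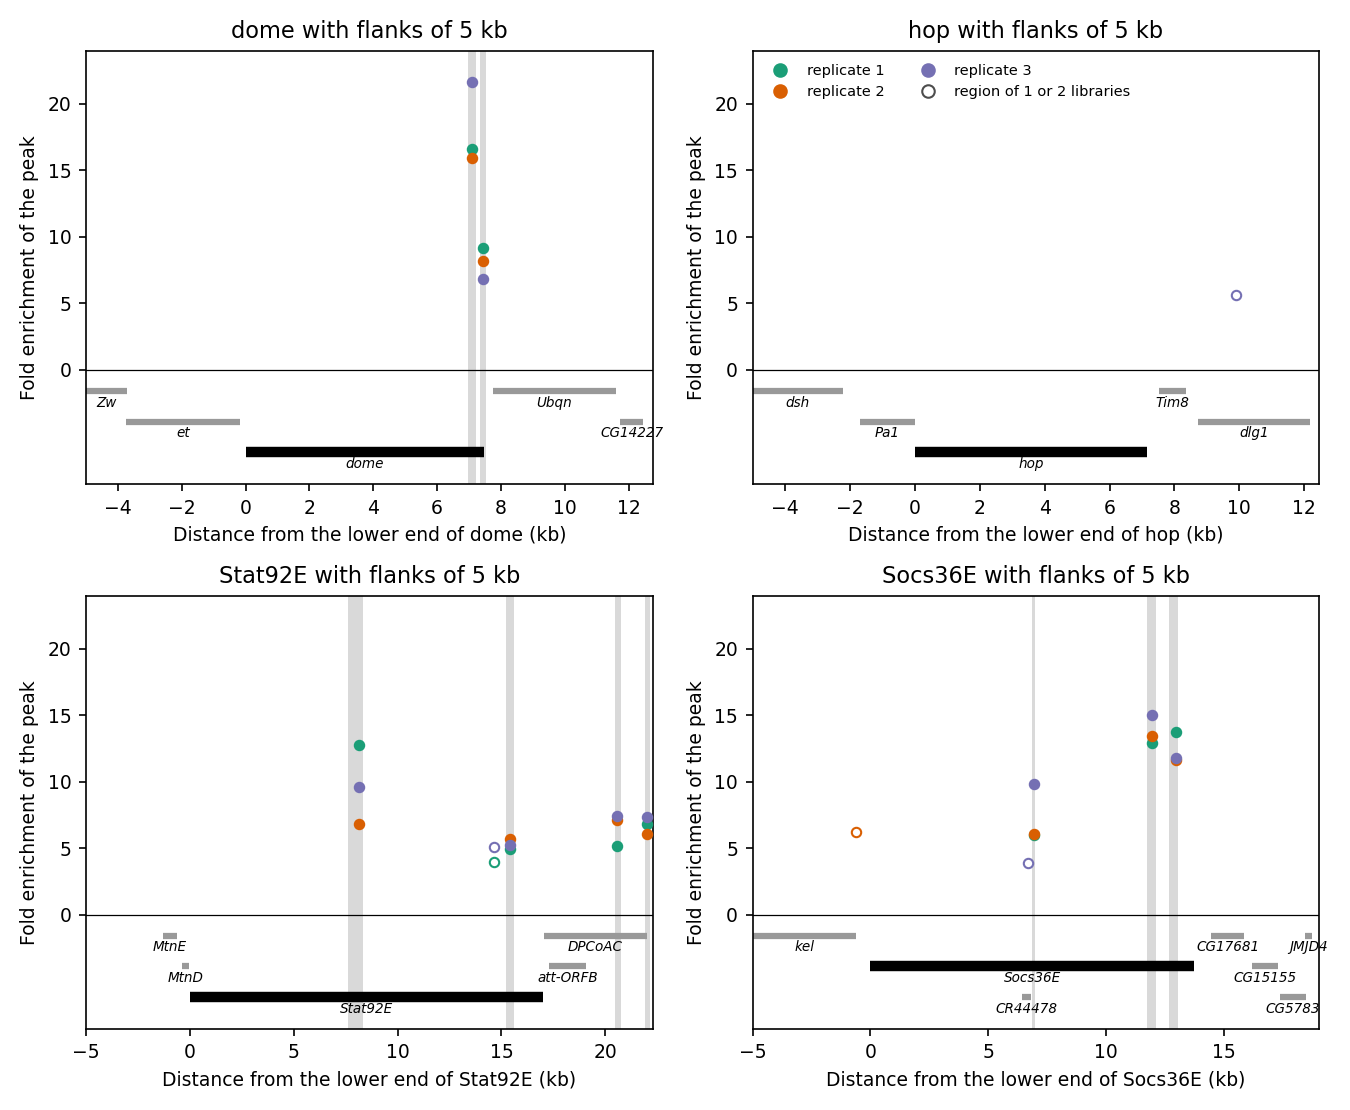
Fold enrichment of each anti-HA peak (vertical axes, linear ratio) against distance in kb from the lower end of dome, hop, Stat92E and Socs36E (horizontal axes), with symbols as in the map of the ligand locus. The dome points stand at 1 end of the gene, hop has a single open point outside the gene, and the highest Socs36E points, from 11.7 to 15.0, stand toward its higher end.

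Stat92E, which encodes the pathway's transcription factor, had 4 consensus regions, of which 2 lay inside the gene and 2 beyond it in DPCoAC. The strongest, at 20542927 to 20543676 on 3R, lay 8123 bp inside the lower end, with folds of 12.8, 6.81 and 9.63 (mean 9.74 ± 2.99; SD, n = 3). The value of replicate 1 was highest and that of replicate 2 was below its library's median, so the libraries disagree on its rank. At 750 bp it was among the widest regions of the series, and 1.16% of consensus regions were as wide. The other region inside, at 20550566 to 20550909 and 1549 bp from the higher end, had folds of 4.95, 5.69 and 5.22 (mean 5.29 ± 0.377). Its values were low in every library, and with a stricter threshold of 5 on the −log10 q-value it was no longer a consensus region.

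The 2 regions in DPCoAC, which lies 73 bp from the higher end of Stat92E, had like values. That at 20555782 to 20556082 had folds of 5.16, 7.12 and 7.45, and that at 20557245 to 20557464 had 6.80, 6.10 and 7.31. Each lay within 5000 bp of 6 genes, so neither belongs to Stat92E alone. A further position inside Stat92E, at 20549894 to 20549993, had peaks of 3.97 and 5.11 in replicates 1 and 3.

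Socs36E, the feedback inhibitor gene, was the only one of the 7 with more than 1 region above the median fold of all consensus regions. The strongest, at 18150385 to 18150801 on 2L and 1799 bp inside the higher end, had folds of 12.9, 13.4 and 15.0 (mean 13.8 ± 1.08; SD, n = 3). The next, at 18151338 to 18151715 and 795 bp inside the same end, had 13.7, 11.7 and 11.8 (mean 12.4 ± 1.18). Replicate 1 was higher at the second and replicates 2 and 3 at the first, so the pair had no constant order. Their mean percentiles were 91.3 and 86.7, and their centres were 1004 bp apart. At the second, the summits of the 3 libraries fell within 4 bp, and 15.2% of consensus regions had summits as close.

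A further region stood near the middle of Socs36E, beside lncRNA:CR44478, at 18145548 to 18145669. Its folds were 6.0, 6.07 and 9.82 (mean 7.30 ± 2.19; SD, n = 3), so replicate 3 stood well above the others. Single libraries added a peak of replicate 3 in lncRNA:CR44478 with a fold of 3.89, and a peak of replicate 2 in kel, 619 bp before Socs36E, with a fold of 6.21. All 3 consensus regions of Socs36E were inside the gene, which spans 13743 bp of its 23743 bp window. The ligand genes had none inside, but they fill a much smaller part of their window.

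By the mean fold of their strongest region the genes ranked dome, Socs36E, upd1, Stat92E, upd2 and upd3. With 3 libraries an exact sign-flip test of a difference between neighbours cannot go below p = 0.25 (two-sided), so only the within-library differences are given. dome was above Socs36E in 3 of 3 libraries, by 4.25 ± 2.13 (SD, n = 3). Socs36E and upd1 differed by 0.434 ± 1.91, with Socs36E higher in 2 libraries. upd1 was above Stat92E by 3.62 ± 5.18 and in 2 libraries. Stat92E was above upd2 by 0.208 ± 5.98 and in only 1, and upd2 was above upd3 by 3.06 ± 2.99 and in 2. Except for dome and Socs36E, neighbours in the order were not separated beyond the spread of the libraries, or changed places between them.

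**Figure D3:**
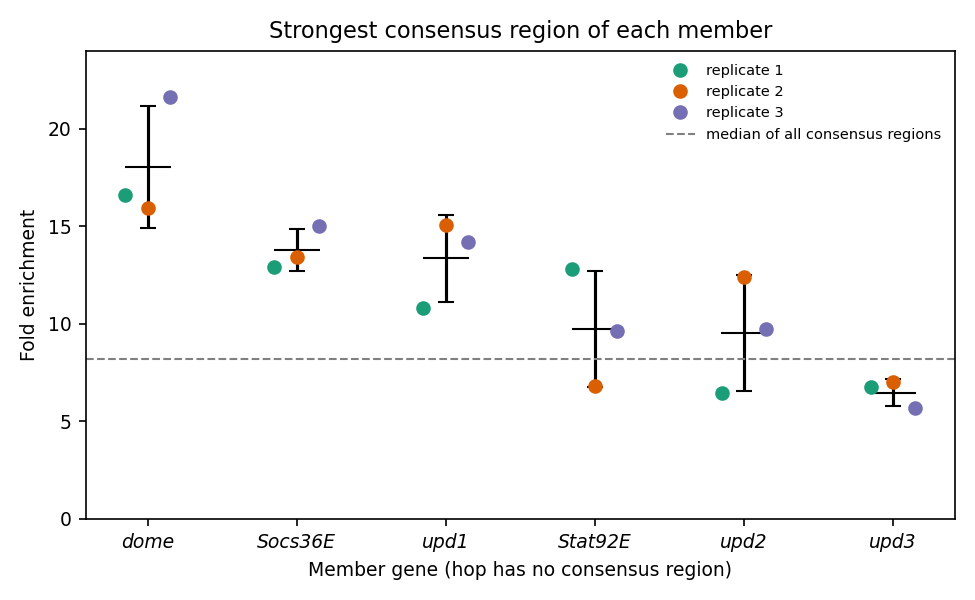
Fold enrichment (vertical axis, linear ratio) of the strongest consensus region of each gene (horizontal axis), with points for the 3 libraries, bars for the mean and lines for ± 1 SD (n = 3). The dashed line is the median of all consensus regions, 8.20. All points of dome, Socs36E and upd1 lie above it and all points of upd3 below it, while Stat92E and upd2 have points on both sides.

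The 18 regions as a set were not stronger than others. Their median fold was 7.39, against 8.20 for all 5768 consensus regions, and 7 of 18 were above that median: 1 at dome, 2 at Socs36E, 1 at Stat92E and 3 in the ligand window. They were wider, with a median of 321 bp against 237 bp. Their summits agreed less well between libraries, with a median range of 57 bp against 34 bp, and the range was at most 50 bp in 8 of 18 regions (44.4%) against 64.5% of all. The summit ranges were not compared at like width or fold. In the ligand window the median fold was 6.55, the median width 341 bp and the median summit range 95 bp, where regions on X had 8.32, 215 bp and 33 bp. No library was highest throughout: replicates 1, 2 and 3 each gave the highest fold at 6 of the 18 regions. Centres lay inside 1 of the 7 genes for 7 regions, inside another gene only for 4 and in no gene for 7.

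**Figure D4:**
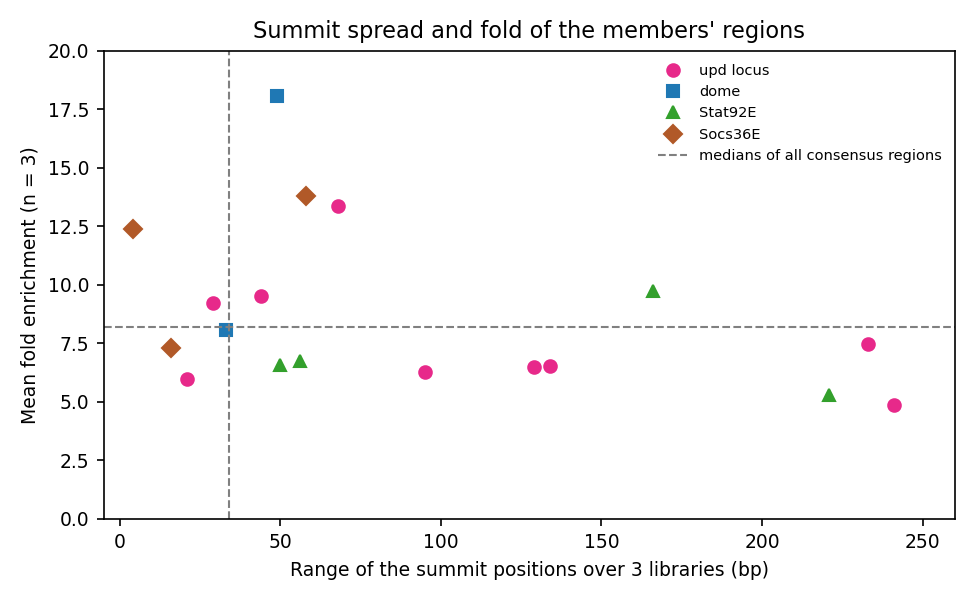
Mean fold enrichment over 3 libraries (vertical axis, linear ratio) against the range of the summit positions over the libraries in bp (horizontal axis) for the 18 consensus regions, with dashed lines at the medians of all consensus regions, 8.20 and 34 bp. The points with a range above 100 bp have folds from 4.85 to 9.74 and belong to the ligand window and Stat92E.

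Of 15 other genes of the pathway, listed by role, 10 had a consensus region in the gene or its flanks, beside 40.2% of protein-coding genes, and their median was 1 region per gene. The listed genes span from 593 to 132765 bp, longer genes are called more often, and no share matched for their lengths was computed. Negative regulators had 5 of 6. Ptp61F, which encodes a phosphatase that acts on the kinase and Stat92E, had 14 regions in its 132765 bp span, the strongest with folds of 25.6, 27.2 and 27.7, at a position that also lies beside rho. Socs44A and Socs16D, relatives of Socs36E, had strongest regions of 11.9, 18.8 and 19.0 and of 10.4, 11.6 and 10.1. The Socs44A region lay outside the gene, and that of Socs16D inside it. ken, which encodes a repressor of part of the Stat92E targets, had 4 regions inside the gene, the strongest with 10.1, 7.71 and 8.67. The fifth was et, described with dome. Su(var)2-10, the PIAS gene, had no consensus region.

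Of the positive regulators, 1 of 3 had a region. BRWD3, which encodes a bromodomain and WD-repeat protein, had 1 outside the gene, of 8.48, 9.32 and 5.11, and the endosomal sorting genes Stam and Hrs had none. Among genes known as pathway targets in other settings, 4 of 6 had a region. zfh1 and chinmo, transcription factor genes that act downstream of Stat92E in the testis, had strongest regions of 11.0, 8.80 and 15.3 and of 7.98, 14.1 and 7.67. Mmp1, a matrix metalloproteinase gene, had 10.6, 11.1 and 8.28 inside the gene. Of the stress-induced Turandot genes, TotM had 10.5, 11.4 and 14.9 in a flank, while TotA and TotC had no peak. With flanks of 1000 bp, 6 of the 15 genes had a region, Socs44A, TotM, BRWD3 and et dropping out, beside 23.9% of protein-coding genes.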

How the data were processed

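The 3 deposited peak lists, 1 per library of 1 group, are on dm6, per the submitters' processing notes, which also name the peak caller MACS2, the aligners Bowtie and Bowtie2, the trimming tool Trim Galore, and R 4.2.1. The role of each aligner, its settings and any control were not given in the sources used here. Each deposited list carries 1 library name in its peak names, so peaks were called per library. The authors' columns hold a fold enrichment (a linear ratio), −log10 p- and q-values, and a whole-number score, which matched 10 times the −log10 q-value, rounded down, in 99.98%, 99.99% and 100% of the peaks of replicates 1, 2 and 3. The lowest −log10 q-value in the deposited lists was 2.00. No read counts were used, so the depth is unknown and no counting interval is given.

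Peaks on 2L, 2R, 3L, 3R, 4, X and Y that overlapped by at least 1 bp were joined. A consensus region has a peak of all 3 libraries, its fold is the mean of the highest peak per library, and its centre is the mean of those peaks' summits. Percentiles and library medians are of the folds of all peaks of a library on these chromosomes, not only of those in consensus regions. Gene spans came from the RefSeq gene table for assembly Release 6 plus ISO1 MT, to which dm6 corresponds. It has no strand, exons or sequence, so the planned search for motifs in promoters was not run and no sequences are shown. Chromosome lengths behind densities run to the last gene end. Named are the 7 genes, the 15 listed genes, genes holding or nearest to a region, and, from the list of cell type markers, those of the pouch and of the fat body. The members, lists and rules were chosen with earlier results of these data known. The 235 kb stretch around hop was examined after its values were seen. Joining and gene calls were tested on simulated peaks with Python 3.11.15 and pandas 2.3.3. Alternatives were other flanks, overlaps, thresholds and numbers of libraries.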

Additional observations from a re-analysis of the deposited data

How the results depend on the processing

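Of 79 alternative values, 66 stayed within 1.5 times the reported count or within 1 SD of the reported fold, and 13 moved further. This tally does not measure stability. Leaving out 1 library shifts a region's mean of 3 by less than 1 SD by construction, and wider flanks can only add regions. The folds that upd2 and upd3 lost with flanks of 1000 bp are not in the tally. With only peaks above each library's median fold, 3 genes (dome, Socs36E and upd1) kept a region of the 6, the regions numbered 5 in place of 18, the ligand window held 2 in place of 9, and 29.3% of protein-coding genes were called in place of 40.2%. With regions of at least 2 libraries, the ligand window held 14. With flanks of 1000 and of 2000 bp, 6 listed pathway genes had a region in both cases, in place of 10, beside 23.9% and 28.3% of protein-coding genes. With flanks of 1000 bp the strongest fold of upd1 was 6.55 in place of 13.4, upd2 and upd3 had no region and so no fold, and 4 of the 7 genes were called. The same flanks changed the mean number of peaks per library from 4 to 1 at upd1, from 1.67 to 0.667 at upd2, from 2 to 1 at upd3, from 0.333 to 0 at hop and from 4.67 to 2.67 at Stat92E. A threshold of 5 on the −log10 q-value changed it to 1 at upd2. Without replicate 1, 2 or 3, the same 6 genes had a region, the regions numbered 19, 20 and 20, and 44.1%, 42.4% and 42.6% of protein-coding genes were called. There only the 2 libraries left had to share a peak. Regions of all 3 were thus kept by construction, except any joined only through the library left out. Stricter peaks and shorter flanks leave out peaks or sequence by construction, and asking for fewer libraries admits regions. No paired analysis was possible because there is 1 group. With depth unknown, a gene without a peak cannot be told from a gene with signal under the authors' threshold.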
